A study of Mus musculus with 8 samples.

Results

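The major histocompatibility complex (MHC) of the mouse, called H2, is represented here by 10 genes: the class I heavy chain genes H2-K1, H2-D1, H2-Q2, H2-Q4, H2-Q6, H2-Q7, H2-T22 and H2-T23, the class I light chain gene B2m, and the class II beta chain gene H2-Ab1. They were taken by symbol from the 13637 genes of a normalized count table of embryonic mouse hearts, in which each of the 10 had a row. The tested hearts, called GOF, came from embryos of the genotype Bmp2GOF;Nkx2.5-Cre, in which a gain-of-function allele of the BMP ligand gene Bmp2 is combined with Cre recombinase under Nkx2.5 control, so that recombination is directed to cardiac progenitors and their descendants. The control hearts were wild type (WT). Each group had 4 samples of polyA RNA from embryonic day 9.5. The series title places the study in the patterning of the endocardium by Bmp2 and Notch. The labels give no strain, litter or sex, and do not say whether a sample was 1 embryo or a pool, so the spread between samples may be technical.

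Class I molecules are made of a heavy chain and beta-2-microglobulin, the B2m product, and carry peptides from inside the cell to its surface. Class II molecules are made of an alpha and a beta chain and are typical of professional antigen-presenting cells. The heavy chain and class II genes lie together on chromosome 17 and are inherited as a haplotype. Laboratory strains carry different haplotypes, whose alleles differ in sequence and in part in gene number, and the reference genome is that of C57BL/6J. Class I levels are known to be low in early embryonic tissue.

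The genes were selected on this same contrast, the difference of their normalized reads between GOF and WT hearts. Their levels are therefore described without a test. Of the 10 genes, 8 had every GOF sample above every WT sample and 2 had overlapping groups. None had every GOF sample below every WT sample. Over all genes tested, 25.6% had every GOF sample above every WT sample, 25.3% had every GOF sample below, and 50.9% were separate in either direction. Because the choice used this contrast, nothing is read from these counts. The log2 difference was at least 1 for 5 of the genes, against 3.68% of all genes. It was at least 2 for 3 of them, against 0.601% of all genes. Nothing is read from these counts either. The 8 separate genes and the 5 genes include H2-Q6, which reached 1 normalized read only in GOF samples. All levels are in normalized reads, the unit of the deposited values, and log2 differences are GOF minus WT on the log2(value + 1) scale with a standard error (SE) from a limma fit across all genes.

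Promoter stretches of 4 class I genes are shown first, so that their likeness can be set beside the levels of the genes. Of the 10 genes, 9 have a promoter window in the RefSeq table for GRCm38.p6, which spans 250 bases before to 50 after an annotated start. H2-Ab1 is not among them. In 5 genes a stretch of 107 to 109 bases runs from an NF-kB type run to a reversed CCAAT box upstream of that start. The stretches of H2-K1, H2-D1, H2-Q4 and H2-Q7 are printed 5′ to 3′ on the strand of the gene. Capitals mark matches, on either strand, to GGGGATTCCC (NF-kB type), TTTCACTT (interferon response type), TGACG (X2 or CRE type) and ATTGG (Y box).
H2-K1 (chr17:34000356-34000464, minus strand): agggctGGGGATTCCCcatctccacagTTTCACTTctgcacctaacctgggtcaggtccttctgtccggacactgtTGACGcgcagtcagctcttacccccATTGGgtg
H2-D1 (chr17:35262917-35263025, plus strand): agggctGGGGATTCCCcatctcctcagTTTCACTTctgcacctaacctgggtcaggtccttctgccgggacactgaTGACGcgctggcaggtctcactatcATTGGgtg
H2-Q4 (chr17:35379437-35379545, plus strand): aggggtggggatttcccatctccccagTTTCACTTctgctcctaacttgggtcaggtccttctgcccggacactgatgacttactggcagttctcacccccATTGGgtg
H2-Q7 (chr17:35439016-35439122, plus strand): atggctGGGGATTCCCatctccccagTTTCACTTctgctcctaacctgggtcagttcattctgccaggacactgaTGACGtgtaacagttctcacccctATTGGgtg
The stretches of H2-K1 and H2-D1 were identical at 98 of 109 aligned positions (89.9%) and hold all 4 motifs. Those of H2-Q6 and H2-Q7 were identical at 106 of 108 positions (98.2%). In the windows of 300 bases, GGGGATTCCC was found in 4 of the 9 genes and in 0.11% of all 32851 windows of the RefSeq table. TTTCACTT was found in 6 of the 9 genes and in 1.6% of windows. TGACG was found in 6 and in 20.8%, and ATTGG in 9 and in 37.4%. GGGGATTCCC and TTTCACTT were copied from the H2-K1 window itself, so their match in H2-K1 was fixed in advance. Matches in class I genes with a similar promoter go with that likeness, so nothing is read from these counts. A match describes letters and is not shown to be a bound site.

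H2-K1 (ENSMUSG00000061232, chromosome 17, 33996017 to 34000347, minus strand, GRCm38) encodes a classical class I heavy chain, which presents peptides to cytotoxic T cells. Its level was 45.7, 48.2, 57.0 and 48.9 normalized reads in GOF samples 1 to 4, against 3.76, 3.795, 3.995 and 3.86 in WT samples 1 to 4. Every GOF sample stood far above the WT samples, which lay within a narrow range. The means were 49.97 ± 4.90 in GOF and 3.85 ± 0.105 in WT (SD, n = 4 each), 13.0-fold higher in GOF, with a log2 difference of 3.39 (SE 0.08). By size of the log2 difference it stood 14th among the 13637 genes. The values rest on 673 to 848 reads per GOF sample and 49 to 63 per WT sample.

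H2-D1 (ENSMUSG00000073411, 35262730 to 35267499, plus strand) is the other classical heavy chain gene measured. It lies 1.27 Mb from H2-K1 by gene start. Its level was 4.79, 2.81, 3.66 and 4.30 in GOF samples 1 to 4, against 5.29, 4.92, 4.72 and 5.545 in WT samples 1 to 4. The GOF samples were on the whole lower, but GOF sample 1 lay above the lowest WT sample. The means were 3.89 ± 0.853 in GOF and 5.12 ± 0.369 in WT (SD, n = 4 each), with a log2 difference of -0.34 (SE 0.13). Per kilobase of exon, the H2-K1 level was 8.39 to 15.05 times that of H2-D1 in the GOF samples and 0.610 to 0.743 times in the WT samples. This ratio within a sample does not depend on how libraries were scaled.

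The Q region lies beyond H2-D1. H2-Q7 (35439155 to 35443773) encodes a heavy chain of the Qa-2 antigen. It was at 8.996, 10.65, 13.9 and 9.73 in GOF samples 1 to 4, against 1.745, 1.54, 1.33 and 1.799 in WT samples 1 to 4, with no overlap. Its means were 10.8 ± 2.16 in GOF and 1.603 ± 0.213 in WT (SD, n = 4 each), 6.75-fold higher in GOF, with a log2 difference of 2.17 (SE 0.13). H2-Q6, its close relative and another Qa-2 gene, was at 2.34, 3.10, 2.81 and 1.55 in GOF samples 1 to 4, against 0.148, 0.659, 0.283 and 0.184 in WT samples 1 to 4. The groups did not overlap, and the log2 difference was 1.38 (SE 0.18). All 13637 genes of the table had at least 1 normalized read in 4 or more samples. H2-Q6 met this only through the GOF samples, so nothing is read from its separation. The WT values of H2-Q6 rest on 2 to 10 reads per sample, and the pseudocount of 1 understates its difference.

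H2-Q2 and H2-Q4 had nearly the same profile. H2-Q2 was at 12.8, 15.9, 18.3 and 16.8 in GOF samples 1 to 4, against 6.71, 7.56, 6.90 and 6.50 in WT samples 1 to 4 (2.31-fold higher in GOF, log2 difference 1.09, SE 0.10). H2-Q4 was at 15.1, 17.9, 18.3 and 17.4 in GOF samples 1 to 4, against 7.96, 8.25, 8.76 and 8.26 in WT samples 1 to 4 (2.07-fold higher in GOF, log2 difference 0.96, SE 0.08). Neither gene had overlapping groups. Per kilobase of exon, H2-Q2 was 1.01 to 1.19 times H2-Q4 in the GOF samples and 0.936 to 1.09 times in the WT samples, so their ratio overlapped between the groups.

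The T region genes encode nonclassical heavy chains. H2-T23, which encodes Qa-1, a ligand of inhibitory receptors of natural killer cells, was at 3.16, 1.85, 3.20 and 2.85 in GOF samples 1 to 4, against 1.804, 0.9095, 1.41 and 0.845 in WT samples 1 to 4. The groups only just did not overlap, since GOF sample 2 and WT sample 1 were almost level (log2 difference 0.75, SE 0.17). H2-T22, whose product is recognised by gamma delta T cells, was at 4.04, 5.54, 5.74 and 4.85 in GOF samples 1 to 4, against 4.94, 4.30, 4.64 and 5.545 in WT samples 1 to 4. The groups overlapped throughout, with a log2 difference of 0.04 (SE 0.12, 95% interval -0.22 to 0.30).

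B2m (ENSMUSG00000060802, chromosome 2, 122147686 to 122153083, plus strand) is the member that lies outside chromosome 17. Its level was 40.8, 46.1, 46.3 and 46.6 in GOF samples 1 to 4, against 30.2, 34.6, 33.2 and 29.3 in WT samples 1 to 4. Every GOF sample was above every WT sample, and GOF sample 1 stood below the other GOF samples. The means were 45.0 ± 2.76 in GOF and 31.8 ± 2.50 in WT (SD, n = 4 each), 1.41-fold higher in GOF (log2 difference 0.49, SE 0.06).

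H2-Ab1 (ENSMUSG00000073421, chromosome 17, 34257689 to 34269419, plus strand) encodes the beta chain of the class II molecule I-A. It was at 56.7, 61.4, 66.5 and 62.1 in GOF samples 1 to 4, against 4.88, 3.04, 6.255 and 5.40 in WT samples 1 to 4. The GOF samples lay far above the WT samples. The means were 61.7 ± 4.01 in GOF and 4.89 ± 1.36 in WT (SD, n = 4 each), 12.6-fold higher in GOF, with a log2 difference of 3.44 (SE 0.16). The alpha chain gene H2-Aa, whose product pairs with that of H2-Ab1, had no row under its symbol, and neither had H2-Eb1, Cd74 and Ciita. Their levels therefore cannot be given. H2-DMa, the alpha chain of a peptide exchange factor for class II, averaged 1.52 ± 0.272 in GOF hearts, against 1.38 ± 0.288 in WT hearts (SD, n = 4 each). It missed the threshold (log2 difference 0.09, limma adjusted p = 0.651).

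**Figure D1:**
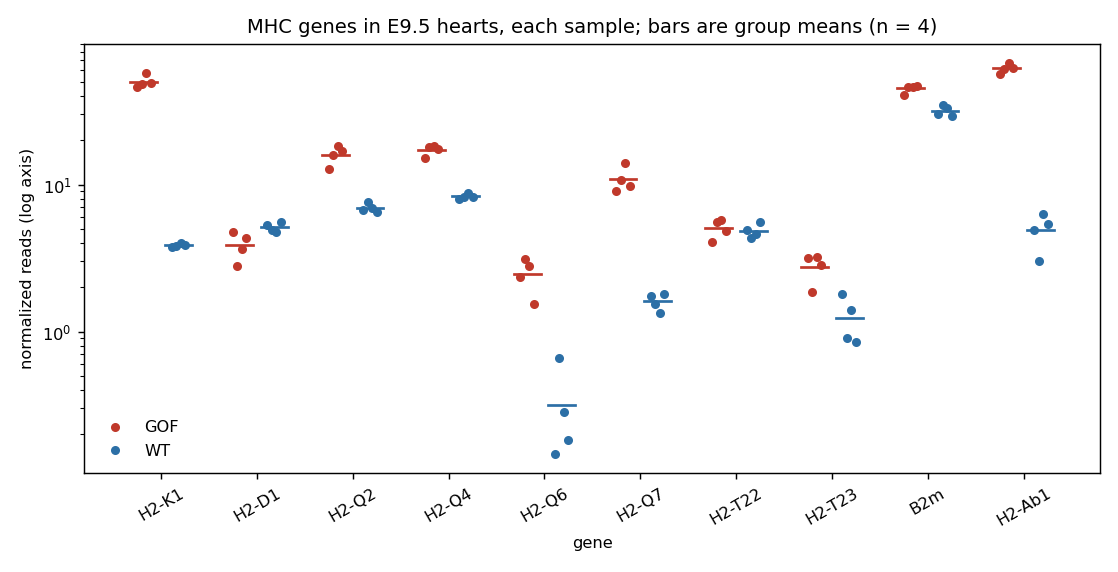
Normalized reads (log axis) of the 10 MHC genes in each sample, with GOF in red on the left and WT in blue on the right of each gene, and short bars at the group means (n = 4). H2-K1 and H2-Ab1 are separated by 13.0-fold and 12.6-fold in the means, while the samples of H2-D1 and H2-T22 overlap.

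The class I genes thus did not differ by a common factor. Summed over the 8 heavy chain genes, the level was 96.95 to 122.9 normalized reads in GOF and 31.9 to 32.5 in WT, 3.35-fold higher in the GOF mean. Without H2-K1 the other 7 genes summed to 51.2 to 65.9 in GOF and 28.05 to 28.7 in WT, 2.05-fold higher. H2-K1 made up 46.3 ± 0.705% of the heavy chain reads in GOF and 11.95 ± 0.365% in WT (SD, n = 4 each). H2-D1 made up 3.65 ± 1.04% in GOF and 15.9 ± 1.02% in WT, and H2-T22 4.655 ± 0.438% in GOF and 15.1 ± 1.51% in WT. Each of these 3 shares was separate between the groups. That of H2-D1 spread over 2.65 to 4.94% among the GOF samples.

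**Figure D2:**
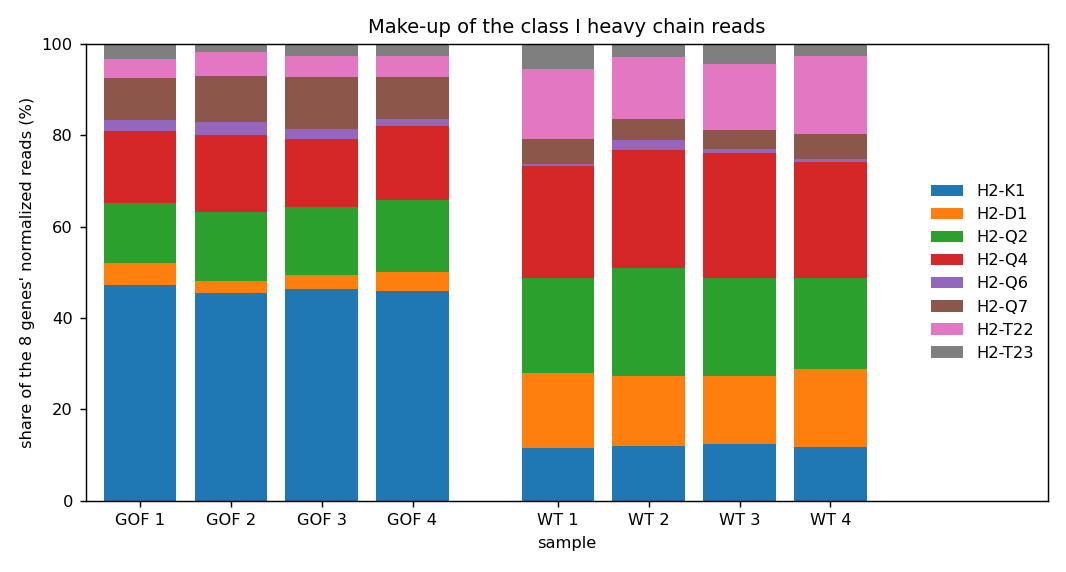
Share (%) of the summed normalized reads of 8 class I heavy chain genes taken by each gene, 1 stacked bar per sample, with the 4 GOF samples on the left and the 4 WT samples on the right. H2-K1 fills 45.5 to 47.2% of each GOF bar and 11.6 to 12.5% of each WT bar.

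The order of the levels per kilobase of exon differed between the groups. In GOF, B2m was highest at 52.3 ± 3.21 normalized reads per kilobase, followed by H2-Ab1 at 24.03 ± 1.56 and H2-K1 at 17.01 ± 1.67 (SD, n = 4 each), with no overlap of samples between neighbours. H2-Q2 and H2-Q4 came next and overlapped, then H2-Q7. The last 4 in GOF were H2-D1, H2-T22, H2-Q6 and H2-T23, with means of 0.957 to 1.51 per kilobase. Each of them overlapped the next, while H2-D1 did not overlap H2-Q7 above it. In WT, B2m was highest at 37.0 ± 2.91, followed by H2-Q4 and H2-Q2, which overlapped at 3.20 ± 0.128 and 3.17 ± 0.210 (SD, n = 4 each). H2-D1, H2-Ab1, H2-T22 and H2-K1 followed in WT between 1.31 and 1.99 per kilobase, each overlapping the next. H2-T23, H2-Q7 and H2-Q6 were lowest in WT, at 0.430 down to 0.153.

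Near-identical class I genes can share reads, and how the authors assigned such reads is not given in the sources used here. Of the words of 50 bases in the GENCODE M21 transcripts of H2-K1, 9.63% also occur in a transcript of another gene. The share was 12.8% for H2-D1, 16.1% for H2-Q2, 21.8% for H2-Q4, 32.0% for H2-Q6, 26.4% for H2-Q7, 34.5% for H2-T22 and 13.6% for H2-T23. It was 0% for B2m and for H2-Ab1. H2-T22 shared most with H2-T10 (31.25%), and H2-Q6 shared most with H2-Q7 (13.95%). H2-K1 shared 4.08% of its words with H2-D1, and most with H2-Q10 (5.18%). These shares describe the reference alleles, and other alleles of the same genes can share more or less. The deposited values hold no sequence variants, so a difference in MHC haplotype between GOF and WT embryos and an effect of the genotype cannot be told apart.

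The samples of a group did not vary together in every gene. GOF sample 3 was the highest GOF sample for 6 of the 8 heavy chain genes and also for H2-Ab1. GOF sample 1 was the lowest for 5 of the 8, and for B2m and H2-Ab1, but the highest for H2-D1. Among WT samples no sample was the highest for more than 3 of the 8 genes. GOF sample 1 also stood apart on the second principal component of all genes, at 20.47, while the other GOF samples lay between -12.2 and 3.36. It also had the highest sum of platelet markers: over 9 of 10 genes tested, the sums were 318.2, 84.45, 120.9 and 152.7 in GOF samples 1 to 4, against 82.4 to 97.1 in WT. Erythroid markers, 12 of 12 tested, were likewise highest in GOF sample 1, with sums of 15430, 4801, 3283 and 9870 in GOF samples 1 to 4, against 2924 to 7771 in WT. Without GOF sample 1 the log2 difference was 3.43 for H2-K1, 3.48 for H2-Ab1, 0.53 for B2m and -0.43 for H2-D1.

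White blood cells were examined because they express class I and class II genes strongly. Of 24 markers, 10 could be tested, and 4 were higher and 4 lower in GOF (limma), where 28.2% of all genes were higher and 28.2% lower. Their summed level was 45.2 to 64.9 in GOF and 49.2 to 57.3 in WT, with overlap. The highest sum was that of GOF sample 1. No tested marker was at 0 reads, and Ptprc, C1qa and Adgre1 had no row under these symbols. Endothelial and endocardial markers, 14 of 14 tested, summed to 1036 to 1218 in GOF and 1274 to 1340 in WT, a lower sum in every GOF sample. The single markers were split, with 3 higher, 6 lower and 5 not past the threshold (limma, median log2 difference -0.09), beside 28.2% of all genes in each direction. Cardiomyocyte markers summed to 37550 to 44360 in GOF and 36170 to 40710 in WT, with overlap. Of the trophoblast and decidua list, 5 of 13 genes were tested, and the placental genes Prl3d1, Tpbpa and Gcm1 were not among them. The 5 tested include Hand1, Des and Cryab, which are not specific to these tissues, so their sum does not measure placental tissue. This sum was 846 to 977 in GOF and 1052 to 1130 in WT, lower in every GOF sample. Yolk sac and gut endoderm markers, 7 of 13 tested, summed to 90.1 to 98.1 in GOF and 79.2 to 116 in WT, with overlap. The part of cell make-up in the MHC levels was not tested. In whole hearts a change in the number of cells of a type and a change in RNA per cell cannot be told apart.

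Bmp2, the targeted gene, averaged 99.1 ± 7.21 in GOF hearts, against 56.3 ± 5.46 in WT hearts (SD, n = 4 each), higher in all 4 GOF samples (exact two-sided permutation p = 0.0286, the smallest that the 70 assignments allow). Total reads ranged over 13182009 to 17927674 for GOF libraries and 12287069 to 16697480 for WT libraries. Of all genes, 56.3% passed a limma adjusted p under 0.05, with 28.2% higher and 28.2% lower in GOF.

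The other genes of the class I and II pathway were tested in the same fit, with p-values adjusted over all genes. Their median differences are set beside -0.002 over all genes, and their counts beside 28.2% of all genes higher and 28.2% lower. Of 38 other class I and class I-like genes listed, 10 could be tested, and 0 rose and 3 fell (median -0.09), with 1 higher and 3 lower at an unadjusted limma p under 0.05. The share that fell was near that of all genes, so nothing is read from the number that fell. Those that fell were Cd1d1, which presents lipids to natural killer T cells (log2 difference -0.46, limma adjusted p = 0.0122), and Raet1e (-0.47, 0.0275) and Ulbp1 (-0.48, 0.0255), ligands of the NKG2D receptor. The groups of all 3 overlapped, and each call depended on single samples. Without WT sample 2, the log2 difference of Cd1d1 was -0.38 (limma adjusted p = 0.0504). Raet1e missed the threshold when any of GOF sample 3 and WT samples 1, 2 and 4 was left out, at -0.46 to -0.35 (limma adjusted p 0.0639 to 0.0961). Ulbp1 missed it when any of GOF samples 1 and 3 and WT samples 1 and 2 was left out, at -0.46 to -0.35 (limma adjusted p 0.0593 to 0.101). Raet1d, a related ligand gene whose annotated span lies within that of Raet1e, missed the threshold (-0.36), and the assignment of reads between them is uncertain. H2-Q1 averaged 1.92 ± 0.262 in GOF hearts, against 1.33 ± 0.4996 in WT hearts (SD, n = 4 each). H2-T24 averaged 1.93 ± 0.199 in GOF hearts, against 1.995 ± 0.451 in WT hearts (SD, n = 4 each). Neither passed, with limma adjusted p of 0.0982 and 0.906. Fcgrt, the neonatal Fc receptor (0.38), Hfe, a regulator of iron uptake (0.34), Mr1 (0.04) and Procr, the protein C receptor (-0.16), did not pass either. Of the other class II list 2 of 12 could be tested, and Ifi30, a lysosomal thiol reductase of antigen processing, rose (log2 difference 0.36, limma adjusted p = 0.00206).

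Genes that supply and load class I peptides were lower where they changed. Of 13 listed, 9 could be tested, and 0 rose and 6 fell (median -0.30), which are also the counts at an unadjusted limma p under 0.05. Over all genes 28.2% fell. Psme2 and Psme1, the subunits of the proteasome activator PA28, fell by 0.53 and 0.37 on the log2 scale (limma adjusted p = 8.13e-07 and 1.28e-05). Psme2 was at 30.4, 29.3, 28.2 and 30.1 in GOF samples 1 to 4, against 45.3, 42.0, 40.9 and 44.0 in WT samples 1 to 4, with no overlap. Erap1, which trims peptides in the endoplasmic reticulum, fell by 0.67 (limma adjusted p = 0.000122), and Pdia3, a chaperone of the loading complex, fell by 0.30 (limma adjusted p = 0.000162). Tapbp, which encodes the loading factor tapasin, missed the threshold (log2 difference 0.12) and is named after its value was seen. The peptide transporter genes Tap1 and Tap2 had no row under these symbols.

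Among regulators of MHC transcription, 3 rose and 6 fell of 14 tested (median -0.06), where 28.2% of all genes rose and 28.2% fell. The share that fell was above that of all genes, and the share that rose was below it. This list was not tested as a set. Rfx5 and Rfxap encode subunits of the same X box binding complex. Rfx5 was at 10.22, 10.7, 10.98 and 9.59 in GOF samples 1 to 4, against 15.7, 16.2, 17.1 and 17.4 in WT samples 1 to 4 (log2 difference -0.63, limma adjusted p = 5.22e-06). Rfxap was at 26.2, 27.0, 28.0 and 28.1 in GOF samples 1 to 4, against 18.8, 18.7, 18.2 and 19.9 in WT samples 1 to 4 (0.51, 4.06e-06). The groups were separate for both, in opposite directions. Nr2f1, a nuclear receptor, fell by 0.90 (limma adjusted p = 1.38e-07), and Nfya, which encodes a subunit of the CCAAT-binding factor, fell by 0.26 (limma adjusted p = 0.000318).

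Interferons are known inducers of MHC genes. Among 21 of 41 interferon genes tested, 2 rose, 5 fell and 14 did not pass (median -0.05). The share that fell was near the 28.2% of all genes, while the share that rose was below the 28.2% of all genes. The list was not tested as a set. With columns set to equal totals without mitochondrial genes, 8 fell, and the calls lower in GOF over all genes also went up, to 4666 against 3840. Ifngr1, a chain of the interferon gamma receptor, rose by 0.67 (limma adjusted p = 1.31e-06), and Ifih1, a sensor of double-stranded RNA, rose by 0.63 (limma adjusted p = 0.00211). Ifit2, an interferon-induced gene, fell by 0.50 (limma adjusted p = 0.0028).

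**Figure D3:**
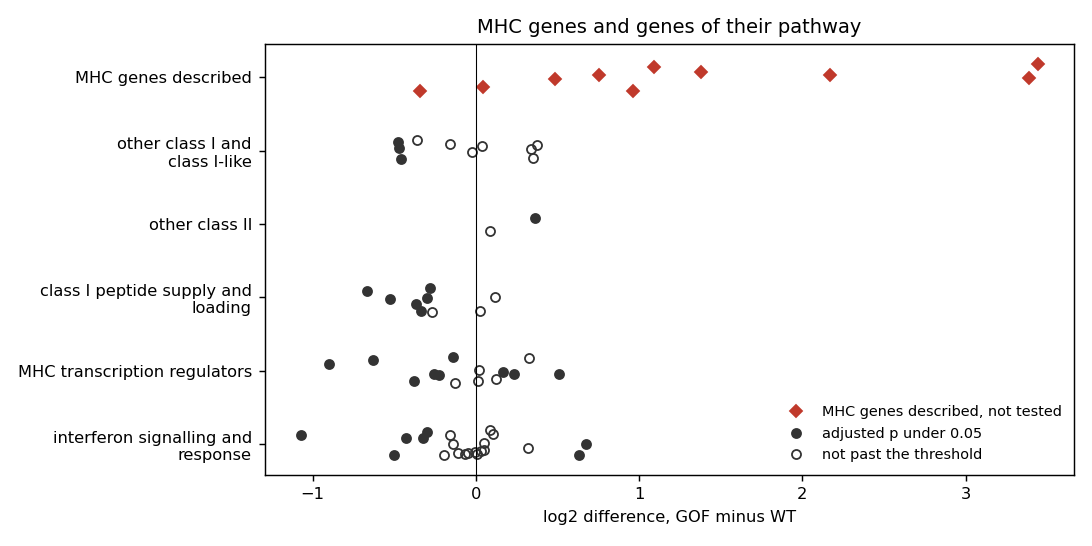
Log2 difference (GOF minus WT) of each gene, 1 row per list, with the 10 MHC genes as red diamonds and the genes of 5 pathway lists as circles, filled where the limma adjusted p was under 0.05. H2-K1 and H2-Ab1 lie at 3.39 and 3.44, and the highest of the pathway genes, Ifngr1, lies at 0.67.

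Nkx2-5, whose locus gives the Cre its name, lies on the same chromosome, 7.16 Mb before H2-K1, and rose by 0.35 (limma adjusted p = 0.000421). The MHC region, from H2-K1 to H2-M3, spans 3.28 Mb and held 78 tested genes that are not among the 10. Of these 21 rose and 20 fell (52.6%). In the stretch between Nkx2-5 and H2-K1, 57.7% of 111 genes passed, in the rest of chromosome 17 54.8% of 456 genes, and on the other chromosomes 56.5% of 12899 genes. The median size of the log2 difference was 0.21 in the MHC region and 0.23 on the other chromosomes. Counts and the median size of change among the neighbours were thus near the background. A log2 difference of at least 2 in size was held by 2 of the 78 genes (2.56%). This share was 0% between Nkx2-5 and H2-K1, 0.877% in the rest of chromosome 17 and 0.636% on the other chromosomes. It rests on 2 genes in the MHC region and was not tested.

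The tested genes next to the members differed from one another. Vps52 and Ring1, whose starts lie 40.2 kb and 24.8 kb from that of H2-K1, missed the threshold at log2 differences of -0.09 and 0.10 (limma adjusted p = 0.171 and 0.284). Ddx39b, 21.0 kb before H2-D1, had a log2 difference of 0.0047 (limma adjusted p = 0.932). H2-Q1, 57.7 kb beyond H2-D1, missed the threshold as given above. Next to H2-Q6 and H2-Q7, Gm8750, 24.1 and 38.4 kb away by gene start, missed the threshold (log2 difference 0.18, limma adjusted p = 0.577). On their other side Tcf19, 87.9 and 73.6 kb away, fell by 0.75 (limma adjusted p = 1.87e-06). Next to H2-T22 and H2-T23, H2-T24, 31.4 and 24.1 kb away, missed the threshold as given above. On their other side Rpp21, 218.5 and 225.9 kb away, fell by 0.25 (limma adjusted p = 0.0373). Before H2-Ab1 the nearest tested gene was H2-DMa, 138.1 kb away, which missed the threshold as given above. Beyond H2-Ab1 it was the Notch receptor gene Notch4, 306.6 kb away, which rose by 0.56 (limma adjusted p = 4.27e-05). Of the 78 genes, 3 had a log2 difference of at least 1, a share near the 3.68% of all genes. Nothing is read from this count, and the 3 genes are named here after their values were seen. They were the immediate early gene Ier3 (3.88, limma adjusted p = 1.03e-11) and the heat shock genes Hspa1a (2.52, 0.00363) and Hspa1b (1.93, 0.00317), a near-identical pair that can share reads.

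**Figure D4:**
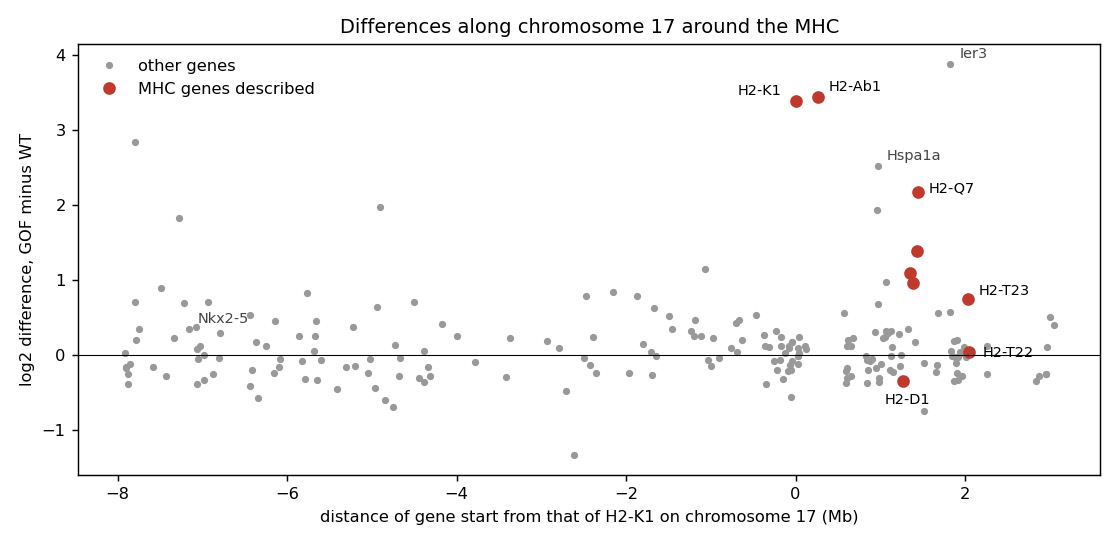
Log2 difference (GOF minus WT) of tested genes around H2-K1 on chromosome 17 against the distance of their start from that of H2-K1 in Mb, with the 9 MHC genes on this chromosome in red and other genes in grey. H2-K1 at 3.39 and H2-Ab1 at 3.44 lie above most genes around them, and H2-D1 lies at -0.34.

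Genes with the most similar profile over the 8 samples were found among 11123 genes with a mean of at least 5 normalized reads, by the root mean square difference of centred log2 values. Closest to H2-K1 were Apln, the gene of the peptide apelin (0.113), Gipr, an incretin receptor gene (0.115), and Egln3, an oxygen-sensing prolyl hydroxylase gene (0.148). Closest to H2-D1 were Elof1 (0.0693), Cox16 (0.0769) and Pigf (0.0845). Closest to B2m were Shb (0.0349), Plpp5 (0.0519) and Dusp3 (0.0559). For genes with a large difference this distance rests mostly on the difference between GOF and WT, the contrast on which the MHC genes were selected. The log2 differences of Apln, Gipr and Egln3 were 3.35, 3.24 and 3.55, beside 3.39 for H2-K1. A similar profile is therefore a description, and shared regulation was not tested.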

How the data were processed

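The deposited file is a table by the authors of normalized counts (a signal that cannot be negative), with 13637 Ensembl genes and 8 sample columns. CASAVA 1.8.2, cutadapt 1.6, FastQC, RSEM 1.2.3 and GRCm38 are named in the submitters' processing notes, without their roles. The normalization, annotation release and read length were not given in the sources used here. Each column's values equalled (whole reads + 0.5) times a constant, for 100% of values within 0.01 reads. Reads quoted are those whole numbers. The interval given for H2-T22 is from limma and rests on the spread between samples. Because 3 columns hold under 100 low values for a separate check, no count model was run. The planned filter (1 normalized read in 4 samples) removed 0 genes.

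Symbols and places came from GENCODE M21, which matched 13554 IDs and missed 83; promoters came from RefSeq. The test was limma 3.58.1 (R 4.3.3; trend, robust, no covariate) on values transformed to log2 with a pseudocount of 1, two-sided, Benjamini-Hochberg adjusted over all genes, with a threshold of 0.05. P-values measure the spread between these samples. No samples within a group agreed within sampling noise (chi-square per degree of freedom 3.485 to 18.99). Scripts were tested on simulated data.

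The MHC genes and the 12 gene lists were chosen with earlier results of these data known. By rule, the text names the 10 MHC genes, all tested genes of the other class I and class II lists, the 4 smallest p-values of each remaining pathway list, Bmp2, Nkx2-5 and the 3 closest profiles to H2-K1, H2-D1 and B2m. Of these, 1 gene is not reported here. Neighbours, Tapbp, Ier3, Hspa1a, Hspa1b and Notch4 were added after their values were seen. Alternatives were other pseudocounts, a stricter filter, other scalings, no trend, a replicate block and leaving out each sample.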

Additional observations from a re-analysis of the deposited data

Results flagged for a closer look

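In 106 groups of 4 samples (the levels of the named genes and the sums of class I genes), 3 held a sample far from the other samples of its group, where chance alone gives about 1 in 20. B2m was at 40.8 normalized reads in GOF sample 1, against 46.1 to 46.6 in the other GOF samples. Nfya was at 55.7 in GOF sample 3, against 60.9 to 61.4 in the other GOF samples. Ier3 was at 125.0 in GOF sample 3, against 91.2 to 95.8 in the other GOF samples.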

How the results depend on the processing

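Over all alternatives, H2-K1, H2-Q2, H2-Q4, H2-Q6, H2-Q7, H2-T23, H2-Ab1 and B2m kept a positive and H2-D1 a negative log2 difference, while H2-T22 lay between -0.09 and 0.12. With a pseudocount of 5 the log2 difference was 2.63 for H2-K1, 0.81 for H2-Q2, 0.73 for H2-Q4, 0.48 for H2-Q6, 1.25 for H2-Q7, 0.31 for H2-T23 and 2.76 for H2-Ab1. With a pseudocount of 0.5 it was 3.53 for H2-K1, 1.86 for H2-Q6 and 2.42 for H2-Q7. With a filter of 5 normalized reads, fewer genes were tested, and 0 other class I genes were lower and 1 interferon gene was higher. At equal column totals without mitochondrial genes, 8 interferon genes were lower. When each sample was left out in turn, 0 to 2 other class I genes were higher and 0 to 3 lower: Fcgrt passed without GOF sample 1 or 4 (0.45 and 0.46), Hfe without GOF sample 1 (0.43) and Raet1d without WT sample 4 (-0.57). Over all genes, 6983 to 7667 passed when a sample was left out. With the replicate number as a block 7355 passed, against 7679 without it, and no call of a gene named by rule changed. No pairing by replicate number was seen: deviations of same-numbered samples correlated at -0.137 to 0.007. A weak pairing could be missed with 4 samples per group. The planned edgeR and DESeq2 fits were not run. H2-Q6 and H2-T23 in WT rest on 2 to 30 reads per sample, which limits their precision.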
